A study of Mus musculus with 6 samples.

Results

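The 10 genes of NF-kB signalling examined here in MLO-Y4 cells are NF-kB subunits and feedback regulators: the transcription factor subunits Nfkb1, Nfkb2, Relb and Rela, and the inhibitors and regulators Nfkbia, Nfkbie, Nfkbiz, Tnfaip3, Tnip1 and Birc3. They were chosen by name, and all 10 were found among the 39174 genes of the deposited table. MLO-Y4 is an osteocyte-like mouse line, osteocytes being the bone cells that lie buried in mineralized matrix. The flow group (3 cultures) received 2 h of oscillating flow (shear stress 10 dyn/cm²), then fresh medium for another 2 h before lysis. The non-flow control group (3 cultures) was sham-treated. All 6 cultures came from this line, seeded 48 h earlier on collagen-coated glass in the same serum-containing medium with no added agent, and the samples of a group were collected on separate days.

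NF-kB dimers rest in the cytoplasm, bound by IkB proteins. Cytokines, microbial products and other stresses activate the IKK kinase, which marks IkB for destruction and frees the dimers to enter the nucleus. Among the genes they switch on are those of their own inhibitors, such as Nfkbia and Tnfaip3, so that the signal is damped within hours. In bone the pathway is known for its part in osteoclast formation and in inflammatory responses of cells of the osteoblast lineage.

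The libraries held 5750000 to 19230000 reads, estimated from the steps between low values, and flow 2 (5750000) and flow 1 (11020000) were the shallowest. The member with the fewest reads, Nfkbie, had an estimated 82 reads in flow 1, which gives a counting error of 11%, while its 3 flow values spanned a 2.79-fold range. Of 14 markers of the osteoblast to osteocyte lineage, 9 averaged 1 FPKM or more (a read number scaled to transcript length and to the size of the library), among them Gja1 and Pdpn, while Sost, Mepe and Fgf23 were listed at 0 in all 6 libraries and Dmp1 in 4 of them. Leukocyte markers summed to 2.54 to 4.43 FPKM in controls and 2.89 to 3.74 FPKM in flow over 11 genes, with Itgam at 0 throughout and only Cd68 reaching a mean of 1 FPKM. Endothelial markers summed to 0.102 to 0.630 FPKM in controls and 0.172 to 0.204 FPKM in flow, with Kdr and Tie1 at 0.

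No member passed the test between flow and control. Of the 10, 9 had a positive log2 fold change, against 48.3% of all genes tested. Their median was 0.28, against -0.01 over all genes, but 0 were called (limma, adjusted p of 0.559 to 0.864), against 0.0167% of the 11957 genes. Without adjustment 0 of 10 had p under 0.05, against 8.52% of all genes. In 0 of 10 did the flow values lie all above or all below the controls, against 15.1% of all genes. In flow 1 every member lay within or below the control range, and in flow 3 8 of 10 had their highest value of the 6. Fold changes are differences of group means of log2(FPKM + 1), flow minus control, a scale on which changes of low genes come out too small. All 10 members passed the filter, an average of 1 FPKM or more. Levels are of bulk cultures, where fewer expressing cells and less RNA per cell cannot be told apart. The labels put a group's samples on separate days but do not say whether they were separate passages, so p-values measure the spread between these samples.

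Several of these genes are known for NF-kB sites near their own start, and their promoters are shown for those letters. Whether they bear on the values was not tested. RefSeq promoters (build GRCm38.p6, 250 bases before to 50 after a gene's start) were matched by symbol for 7 members, all but Nfkb1, Relb and Nfkbiz. The NF-kB consensus, searched on both strands, was present in 5 of the 7, namely Nfkb2, Nfkbia, Nfkbie, Tnfaip3 and Tnip1, and in 8.46% of all 32851 promoters of this length. The motif GGGNNTTTCC, whose matches partly coincide with the consensus, was present in 3 (Nfkb2, Nfkbia and Tnfaip3) and in 1.63% of all promoters. The 150 bases before the outermost RefSeq start of these 5 genes follow, 5′ to 3′, with consensus matches in capitals.
Nfkb2 promoter, chr19:46304587-46304736, plus strand: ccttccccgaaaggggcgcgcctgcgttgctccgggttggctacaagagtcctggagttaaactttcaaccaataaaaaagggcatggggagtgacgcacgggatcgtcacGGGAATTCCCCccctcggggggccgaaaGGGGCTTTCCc
Nfkbia promoter, chr12:55492648-55492797, minus strand: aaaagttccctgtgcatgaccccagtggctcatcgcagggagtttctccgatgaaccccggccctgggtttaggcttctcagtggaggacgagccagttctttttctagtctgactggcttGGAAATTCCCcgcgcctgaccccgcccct
Nfkbie promoter, chr17:45555550-45555699, plus strand: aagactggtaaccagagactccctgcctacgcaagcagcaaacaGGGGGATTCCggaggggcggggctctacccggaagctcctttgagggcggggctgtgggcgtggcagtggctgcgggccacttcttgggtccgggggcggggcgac
Tnfaip3 promoter, chr10:19015411-19015560, minus strand: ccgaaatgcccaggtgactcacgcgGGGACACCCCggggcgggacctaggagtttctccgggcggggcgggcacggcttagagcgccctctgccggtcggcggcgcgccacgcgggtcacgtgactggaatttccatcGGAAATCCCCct
Tnip1 promoter, chr11:54962941-54963090, minus strand: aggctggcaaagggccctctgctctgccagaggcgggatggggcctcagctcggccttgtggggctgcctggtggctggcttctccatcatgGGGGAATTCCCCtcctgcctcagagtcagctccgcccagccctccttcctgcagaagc
Nfkb2 and Tnfaip3 each held 2 separate stretches of capitals and the other genes 1. In Nfkbia the match began 29 bases before the start, on the opposite strand to the gene. In Tnip1 and in the upstream stretches of Nfkb2 and Tnfaip3, overlapping matches on both strands merged into 1 stretch. Nfkb2 has 3 starts in the table and Tnfaip3 has 2, and the deposited values do not show which was used. For both, the GENCODE gene reaches further upstream, to 46304320 for Nfkb2 and to 19015657 for Tnfaip3. The bases printed for them thus lie inside the annotated gene. For Tnip1 the bases after the RefSeq start were not found in a transcript of the GENCODE annotation, and that start lies outside the annotated gene. The promoters of Rela and Birc3 had no match in this window. A match describes letters only, and binding was not measured.

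In control cells the members spanned a wide range of levels. Nfkb2 and Nfkb1, the precursors of p52 and p50, were the most abundant, at 56.8 ± 4.02 and 54.3 ± 4.86 FPKM (SD, n = 3), followed by Nfkbia at 49.4 ± 2.74 FPKM. The control values of these 3 overlapped. Rela, at 39.1 ± 3.43 FPKM, lay below Nfkbia and above Relb (31.5 ± 3.01 FPKM) with no overlap of control values. Nfkbiz, at 27.5 ± 7.02 FPKM, overlapped Relb. Birc3 (17.2 ± 2.39 FPKM) and Tnip1 (12.7 ± 2.08 FPKM) each stood apart from the gene above it. Tnfaip3 (3.99 ± 1.87 FPKM) and Nfkbie (3.64 ± 0.608 FPKM) were the lowest and overlapped. Among the 11957 genes tested, control means of the members ran from percentile 17.4 for Nfkbie to percentile 82.0 for Nfkb2. In flow cells Rela and Relb, Birc3 and Tnip1, and Tnip1 and Tnfaip3 overlapped, which they had not in controls.

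**Figure D1:**
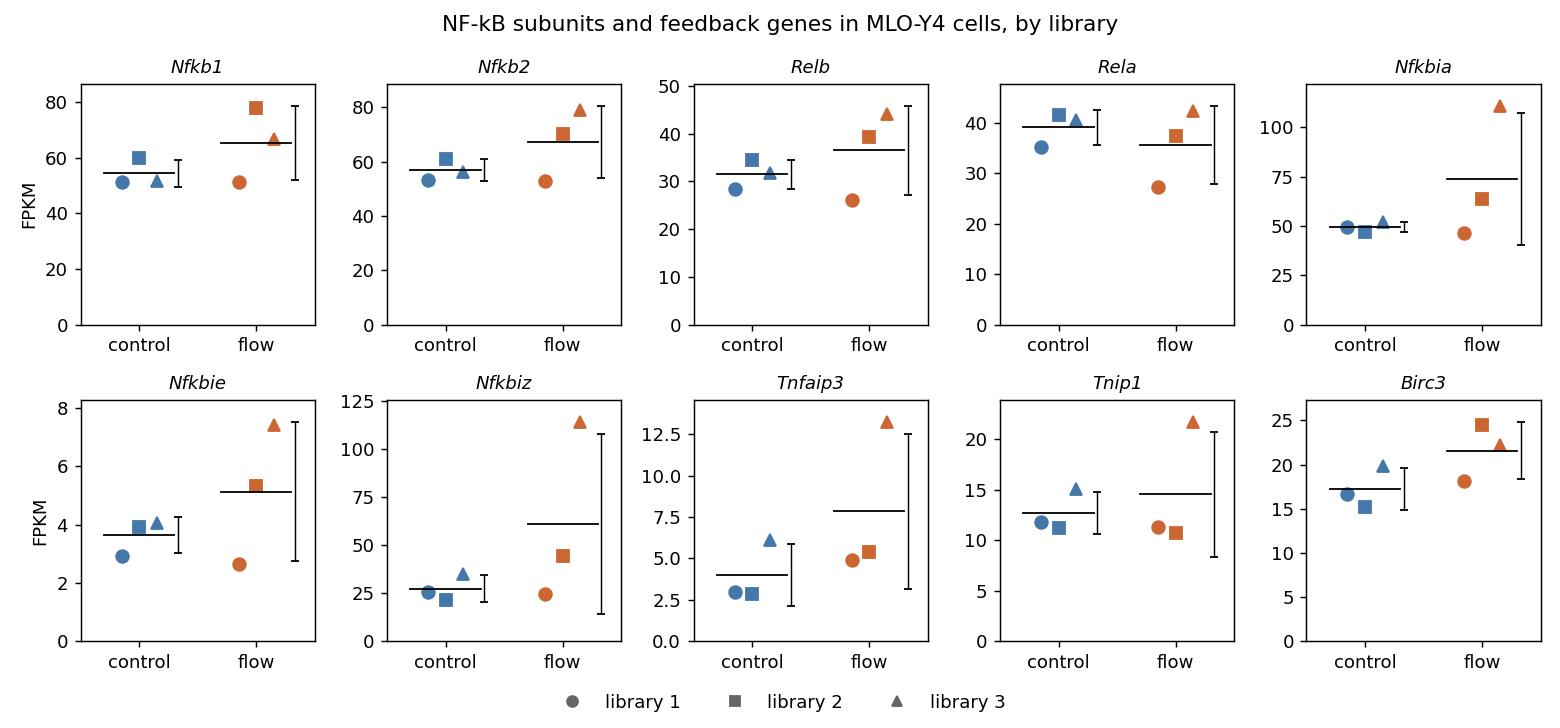
Level of each member in FPKM (y axis, from 0, scaled per gene) in the 3 control and 3 flow libraries; symbols give the library number, horizontal lines the group mean and bars 1 SD. Flow 1 lies within or below the controls in all 10 genes, and flow 3 is the highest of 6 libraries in all but Nfkb1 and Birc3.

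Among the subunits, Nfkb1 (ENSMUSG00000028163, mm10 chr3:135584655-135691547, minus strand) encodes p105, which is processed to p50. It had 51.3, 59.9 and 51.6 FPKM in controls 1 to 3 and 51.3, 77.9 and 66.7 FPKM in flow 1 to 3. Flow 2 and flow 3 were above every control and flow 1 was level with control 1, so the groups overlapped. The log2 fold change was 0.25 (SE 0.17, 95% interval -0.16 to 0.65, limma adjusted p = 0.602).

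Nfkb2 (ENSMUSG00000025225, chr19:46304320-46312385, plus strand) encodes p100, the precursor of p52 and itself an inhibitor of RelB dimers. It had 53.2, 61.1 and 56.0 FPKM in controls and 52.9, 70.0 and 79.1 FPKM in flow. Again 2 flow libraries lay above all controls and flow 1 lay below them. The difference between groups was a log2 fold change of 0.23 (SE 0.16, interval -0.16 to 0.62, adjusted p = 0.617, limma). A non-coding RNA on the opposite strand, AC114539.1, shares 11.6% of the exon bases of Nfkb2, and Psd, a protein-coding gene also on the opposite strand, overlaps it to a lesser extent. Reads in the shared bases cannot be told apart without known use of strand. The locus that the deposited table gives for Nfkb2 ends at 46327156, beyond the annotated end.

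Relb (ENSMUSG00000002983, chr7:19606217-19629438, minus strand), the subunit that pairs mainly with p52, had 28.4, 34.4 and 31.7 FPKM in controls and 26.2, 39.4 and 44.2 FPKM in flow. As for Nfkb2, the lowest of the 6 values was in flow 1 and the highest in flow 3 (log2 fold change 0.18, SE 0.20, limma adjusted p = 0.718).

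Rela (ENSMUSG00000024927, chr19:5637483-5648130, plus strand) encodes p65, the main activating subunit. It was the only member with a negative difference, with 35.2, 41.5 and 40.6 FPKM in controls and 27.2, 37.4 and 42.4 FPKM in flow. Flow 1 was below all controls, flow 2 was among them and flow 3 was above them. The log2 fold change was -0.15 (SE 0.18, interval -0.57 to 0.28, adjusted p = 0.733, limma). The sign turned with the GC correction given below (0.074), without flow 1 (0.03) and with flow 3 alone against the controls (0.12).

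The IkB genes varied widely among the flow libraries. Nfkbia (ENSMUSG00000021025, chr12:55489410-55492647, minus strand) encodes IkBα, the best known inhibitor of p65 dimers and a rapid NF-kB target. Its controls were close together at 49.4, 46.7 and 52.2 FPKM, a 1.12-fold range, whereas the flow libraries had 46.3, 63.6 and 111 FPKM, a 2.40-fold range. Flow 1 was below all controls and flow 3 above every other library. Its log2 fold change was 0.47 (SE 0.30, interval -0.26 to 1.21, limma adjusted p = 0.59).

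Nfkbie (ENSMUSG00000023947, chr17:45555703-45563169, plus strand), which encodes IkBε, had 2.94, 3.93 and 4.04 FPKM in controls and 2.65, 5.31 and 7.41 FPKM in flow. The order of the flow libraries was the same as for Nfkbia, with flow 1 the lowest of all 6 (log2 fold change 0.33, SE 0.32, limma adjusted p = 0.673).

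Nfkbiz (ENSMUSG00000035356, chr16:55811375-55838899, minus strand) encodes IkBζ, a nuclear IkB that works with p50 on a second wave of inflammatory genes. It had 25.9, 21.4 and 35.2 FPKM in controls and 24.7, 44.4 and 114 FPKM in flow. Its flow range was 4.62-fold, the widest of the 10, against 1.64-fold in controls. This gave a log2 fold change of 0.88 with SE 0.54 (interval -0.42 to 2.17, limma adjusted p = 0.581). With a pseudocount of 0.1 the difference of Nfkbiz was 0.89 and that of Tnfaip3 0.90, and without flow 3 they were 0.29 and 0.37.

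The remaining 3 genes act on ubiquitin signalling. Tnfaip3 (ENSMUSG00000019850, chr10:19000910-19015657, minus strand) encodes A20, a ubiquitin-editing enzyme that shuts off signalling to IKK. It had 2.95, 2.87 and 6.14 FPKM in controls and 4.94, 5.38 and 13.2 FPKM in flow. Flow 1 and flow 2 lay above controls 1 and 2 but below control 3, and only flow 3 exceeded every control. For Tnfaip3 the log2 fold change was 0.77 (SE 0.41, interval -0.23 to 1.77, limma adjusted p = 0.56).

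Tnip1 (ENSMUSG00000020400, chr11:54910785-54962917, minus strand) encodes ABIN1, a partner of A20. It had 11.8, 11.2 and 15.1 FPKM in controls and 11.3, 10.7 and 21.7 FPKM in flow, so that flow 3 alone was above the controls. The log2 fold change of 0.12 (SE 0.28, limma adjusted p = 0.864) turned to -0.18 without flow 3 and to -0.059 in the other deposited table.

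Birc3 (ENSMUSG00000032000, chr9:7848699-7873186, minus strand) encodes cIAP2, a ubiquitin ligase of TNF receptor complexes. It had 16.6, 15.2 and 19.9 FPKM in controls and 18.1, 24.5 and 22.2 FPKM in flow. It had the smallest p of the members (log2 fold change 0.31, SE 0.15, interval -0.06 to 0.68, limma adjusted p = 0.559), and its highest library was flow 2. In the other deposited table, made of far fewer reads, control 1 had 60.8 FPKM at a depth of 690000 reads and the difference was -0.15.

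**Figure D2:**
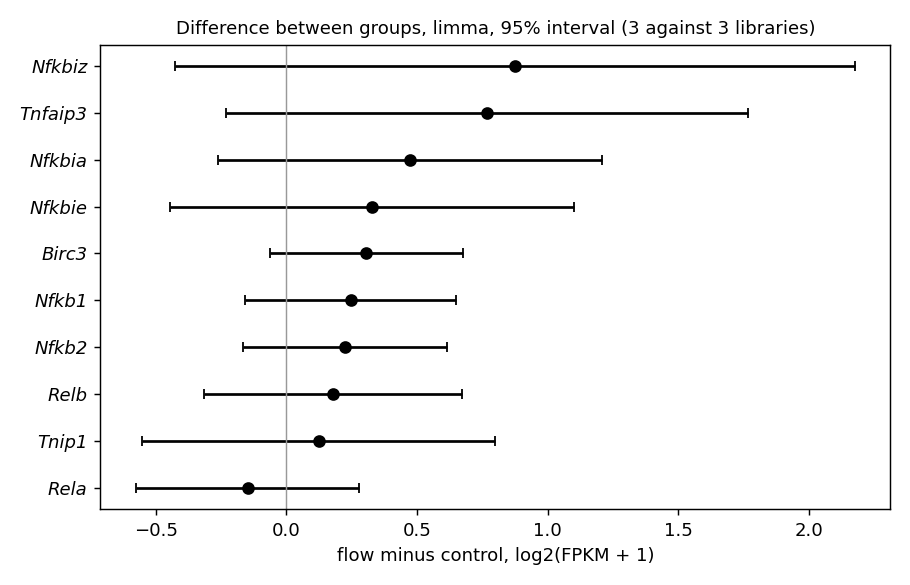
Difference between flow and control for each member on the log2(FPKM + 1) scale (x axis), with the limma estimate as a point and its 95% interval as a bar, for 3 against 3 libraries. Every interval includes 0, and those of Nfkbiz, Tnfaip3 and Nfkbie are the widest.

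Flow cultures differed among themselves more than controls did. The SD of log2 values was larger in flow than in controls for 10 of 10 members, against 70.6% of all genes tested, and its median was 0.46 in flow and 0.16 in controls. Over all genes these medians were 0.22 and 0.14, and flow 1 and flow 2 were also the shallowest libraries. The highest of the 6 values was in flow 3 for 8 of 10 members, against 13.4% of all genes. The lowest of the 3 flow values was in flow 1 for 9 of 10, against 30.6% of all genes. Relative to each gene's mean, the median member stood at -0.22, -0.14 and -0.05 in controls 1 to 3, and at -0.27, 0.21 and 0.53 in flow 1 to 3. The median over all genes lay between -0.01 and 0.00 in each library.

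**Figure D3:**
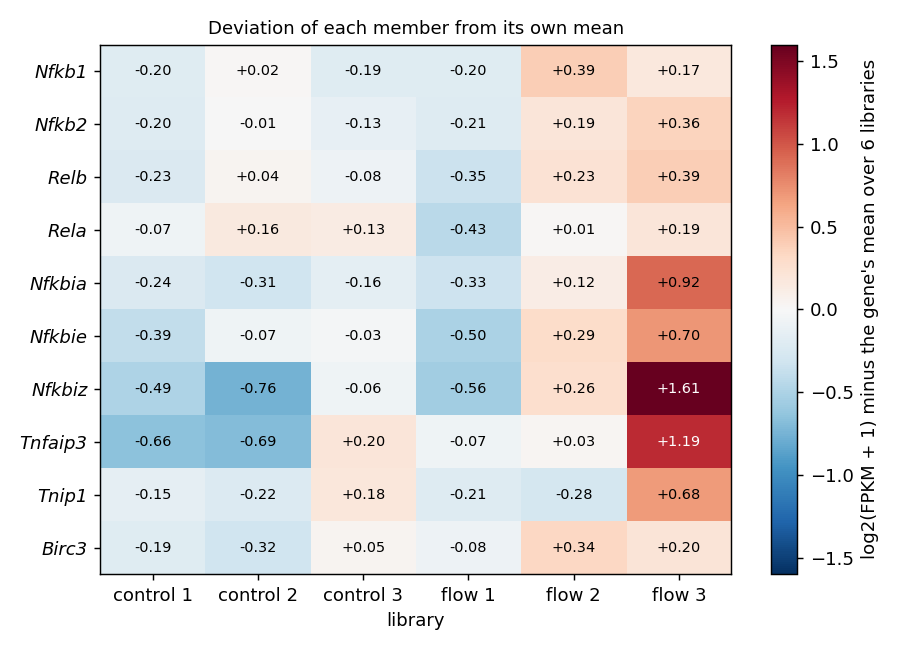
Deviation of each member (rows) from its own mean over the 6 libraries (columns), in log2(FPKM + 1); red is above the mean and blue below. Flow 1 is below the mean in all 10 rows, and flow 3 is above it in all 10, from 0.17 for Nfkb1 to 1.61 for Nfkbiz.

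The difference between groups depended on single libraries. Without flow 1, 7 members (Nfkb1, Nfkb2, Relb, Nfkbia, Nfkbie, Nfkbiz and Birc3) had flow values above all controls, against 9.93% of all genes, and the same 7 had an unadjusted p under 0.05, against 1.79% of all genes higher with such a p. The median was then 0.41, and 0 members were called (limma, adjusted p of 0.813 to 0.955), against 0.0755% of genes. Flow 1 held the lowest flow value in 9 of 10 members, against 30.6% of all genes, so leaving it out raises their differences by construction. These shares are therefore no further support for a difference. Without control 3, 2 members (Tnfaip3 and Birc3) lay above all controls, against 11% of genes. Without flow 3 the median was 0.12, the difference of Nfkbia was 0.13 in place of 0.47 and that of Nfkbiz 0.29 in place of 0.88. With flow 3 alone against the 3 controls, a setting chosen after the data were seen, all 10 lay above the controls, against 23.8% of genes, and the median was 0.61. For the 8 members with their highest value in flow 3 this position was fixed in advance. In that fit 0.629% of genes and 0 members were called, the spread came from the controls only, and flow 3 was taken to have that same spread. The smallest adjusted p among members was 0.0873, for Nfkbia at a log2 fold change of 1.15 (limma).

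**Figure D4:**
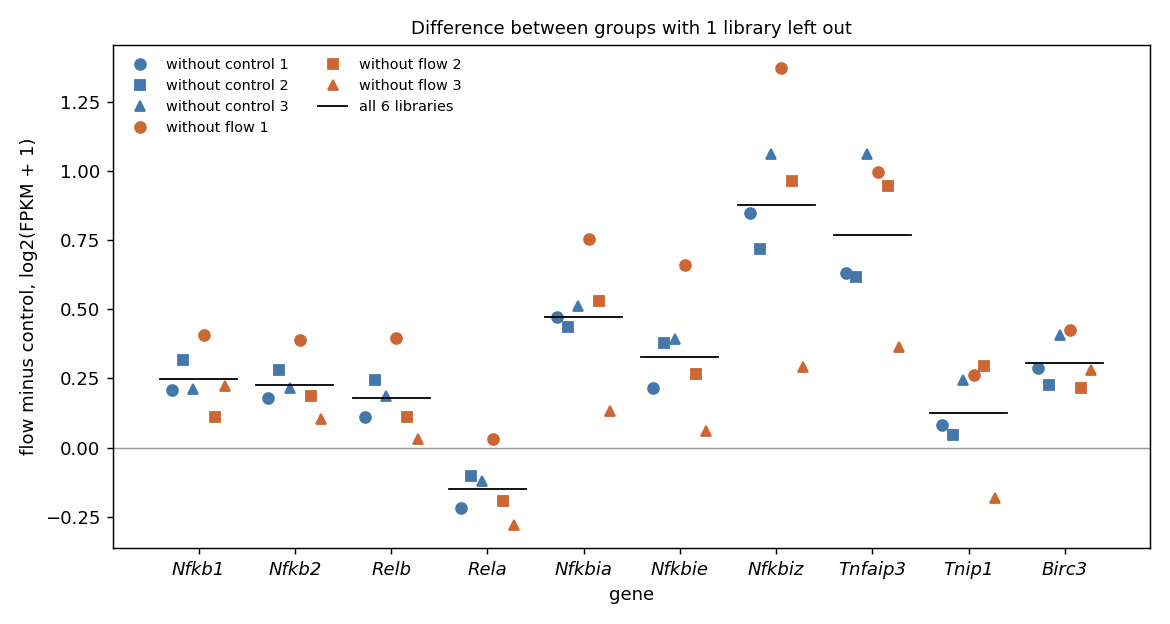
Difference between flow and control of each member (y axis, log2 scale) with 1 library left out (points; colour gives the group and symbol the library number) and with all 6 (lines). Without flow 1 the difference is at its highest in 8 of the genes, and without flow 3 it is 0.13 for Nfkbia and 0.29 for Nfkbiz.

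Fold changes in these data moved with the GC content of transcripts. The median log2 fold change was 0.23 in the GC decile from 20.6% to 41.1% and -0.23 in the decile from 57.9% to 90.3%. The longest transcripts of the members held between 44.9% (Nfkb1) and 59.4% GC (Nfkb2 and Rela). With the GC trend of each library removed, all 10 differences were positive with a median of 0.41, and 0 were called (limma, adjusted p of 0.735 to 0.931), against 0.0169% of genes. Nfkb2 then had 0.45 (SE 0.13) and no overlap between groups, against 6.63% of all genes higher without overlap.

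The rest of the pathway gave 0 calls in the 6 lists, whose medians are to be read against -0.01 over all genes tested. Other subunits and IkB proteins (5 genes, all tested) had a median of 0.11. Rel, the c-Rel subunit, had 2.40, 1.87 and 2.65 FPKM in controls and 2.79, 4.47 and 3.16 FPKM in flow (log2 fold change 0.42, SE 0.20, limma adjusted p = 0.559). It was the only 1 of these 5 without overlap, against 15.1% of all genes in either direction and 7.12% on the higher side. Bcl3, Nfkbib and Nfkbid overlapped, with differences of 0.32, -0.18 and 0.11.

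Other feedback regulators had a median of 0.15 over 17 tested of 18, and 4 had no overlap on the higher side, against 7.12% of all genes, and 1 on the lower, against 8%. Tank, an adaptor that restrains TRAF signalling, had 24.2, 30.6 and 23.4 FPKM in controls and 43.3, 44.8 and 33.3 FPKM in flow, a log2 fold change of 0.61 with SE 0.16 (limma adjusted p = 0.559). Unlike the members, Tank was lowest of the flow group in flow 3. Zc3h12a, the RNase regnase-1 that degrades inflammatory mRNAs, had 19.4, 16.2 and 11.6 FPKM in controls and 19.4, 38.7 and 58.9 FPKM in flow. Its log2 fold change of 1.15 (SE 0.40) was above the estimate for every member, a gap that was not tested, and flow 1 was level with control 1. Birc2, the cIAP1 paralog of Birc3, had a difference of 0.26 (SE 0.11) and no overlap. Pdlim2, a ligase that ends nuclear p65 activity, had -0.41 (SE 0.16) with overlap.

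Upstream of the members, receptors had a median of -0.01 over 11 tested of 13. Tlr2 had 48.4, 56.8 and 55.4 FPKM in controls and 65.8, 109 and 98.9 FPKM in flow, with all flow values above the controls (log2 fold change 0.73, SE 0.20, limma adjusted p = 0.559). Ltbr, the lymphotoxin receptor that feeds p100 processing, had -0.40 (SE 0.20), Tnfrsf12a had -0.23 and Cd40 had 0.34, each with overlap. With the GC trend removed Tlr2 had 0.74, Ltbr -0.17, Tnfrsf12a -0.028 and Cd40 0.33. Cd40 was low, at a mean of 0.861 FPKM in controls and 1.36 FPKM in flow. Its difference was 0.61 with a pseudocount of 0.1. Adaptors and kinases had a median of -0.045 over 29 tested of 30, with 4 lower without overlap, against 8% of all genes, and 0 higher, against 7.12%. Irak1, a kinase of interleukin-1 and Toll-like receptor signalling, had -0.51 (SE 0.17) with overlap. The LUBAC components Rbck1 (-0.32, SE 0.12) and Sharpin (-0.36, SE 0.15), and the TAK1 partner Tab1 (-0.28, SE 0.12), had all 3 flow values below the controls. With the GC trend removed Rbck1 had -0.092, Sharpin -0.20 and Tab1 -0.069, and the median of adaptors and kinases was -0.069. Irak1, Rbck1, Sharpin and Tab1 were not called (limma, adjusted p = 0.559 for each with all libraries and no GC correction).

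Of 12 ligand genes 5 were tested, with a median of 0.59. Tnf, a classical activator and target of the pathway, had 8.92, 13.5 and 23.9 FPKM in controls and 12.3, 20.9 and 44.6 FPKM in flow. Its highest library was flow 3 and its highest control was control 3, as for Nfkbia, Nfkbie, Nfkbiz, Tnfaip3 and Tnip1 (log2 fold change 0.63, SE 0.52, limma adjusted p = 0.634). Tnfsf11 had 0.68 (SE 0.47) with overlap, and Tgfb1 had 0.13 (SE 0.08) with all flow values above the controls. Without flow 3 the differences were 0.16 for Tnf and 0.20 for Tnfsf11. Tnfsf12, the ligand TWEAK, had 9.08, 9.54 and 8.86 FPKM in controls and 5.15, 7.79 and 7.01 FPKM in flow (-0.42, SE 0.16), with all flow values below the controls. Of the 5 tested ligands, 1 was thus higher and 1 lower without overlap, against 7.12% and 8% of all genes.

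Other known targets, 29 tested of 35, had a median of 0.32 (0.52 without flow 1, 0.19 without flow 2), and 4 were higher and 3 lower without overlap, against 7.12% and 8% of all genes. By unadjusted p under 0.05 there were 6 higher and 2 lower, against 3.7% and 4.82% of all genes. Those with the smallest p were Cxcl5 (2.78, SE 0.65), Tap1 (-0.34, SE 0.08), Ccl2 (1.35, SE 0.42) and Cxcl1 (2.42, SE 0.80), each with an adjusted p of 0.559 (limma). Per library, the median target stood at -0.35, 0.02 and -0.28 in controls and at -0.26, 0.66 and 0.29 in flow relative to its own mean. Flow 1 was thus the lowest of the flow group for targets as for the members. For the targets it stood above controls 1 and 3, and for the members below every control. By these medians the targets were highest in flow 2 and the members in flow 3, but single genes differed. Among targets, Cxcl5 and Ccl2 were highest in flow 2, Cxcl1 and Lif in flow 3 and Tap1 in control 2. Among members, Nfkb1 and Birc3 were highest in flow 2.

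The genes whose levels over the 6 libraries were most like the mean of the members were Armc10, Eaf1, Agpat9, Lif and Mrpl46. Their Pearson r with that mean was 0.95 to 0.96 over 6 libraries, and they were picked from 7378 genes averaging 10 FPKM or more, of which 31 had r above 0.9. Lif is a cytokine of the interleukin-6 family and is among the other known targets above. It had 4.09, 9.83 and 14.3 FPKM in controls and 6.11, 27.3 and 37.0 FPKM in flow. Armc10 ranged from 10.2 to 10.9 FPKM in controls and from 10.2 to 13.2 FPKM in flow. Among the members, r with the mean of the other 9 ran from 0.55 for Rela to 0.98 for Nfkbie.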

How the data were processed

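RNA of 6 MLO-Y4 libraries, 3 per group, was sequenced as single-end reads of 50 cycles from NEXTflex rapid libraries, per the labels' protocols. The submitters' processing notes list build mm10, Cufflinks 2.2.1, TopHat2 2.0.9 and CASAVA 1.8.2. Which annotation and counting settings were used, and whether strand was, is not given in the sources used here.

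The authors deposited 2 tables of FPKM, each with 1 column per library and no pooling. Every column of the table tested names a library title. Among the columns of the second table, 2 for flow do not, and they entered only as members of the flow group. With no counts deposited, no count model was fitted.

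limma 3.58.1 (R 4.3.3) was fitted to log2(FPKM + 1) of the 11957 genes that averaged 1 FPKM or more, two-sided and with a variance trend. P-values were adjusted by Benjamini-Hochberg over all of them, with a threshold of 0.05. An exact permutation test of 3 against 3 cannot go below 0.1 and was not run. The code was first tested on simulated data. Depth came from the step that 1 read makes in genes with 1 transcript (74.6% to 81.0% of low values gave whole reads to within 0.02). Coordinates and GC content came from GENCODE M21 (mm10), and promoters from RefSeq.

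The members and lists were chosen with earlier results of these data known. Named genes were the 10 members, up to 4 tested genes of each pathway list by smallest p, and the 5 genes most alike. Alternatives covered pseudocounts, filters, quantile normalization, GC correction, the variance trend, pairs by title, each library left out and the other table.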

Additional observations from a re-analysis of the deposited data

How the results depend on the processing

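Under the 16 other settings 0 members were called. The number of genes called, 2 with all libraries, was 4 with a pseudocount of 0.1, 5 with 0.01, 4 with no filter on low values and 75 with flow 3 alone, and 9 to 24 with 1 library left out. Members without overlap numbered 1 with the GC trend removed, 10 with flow 3 alone and 0 to 7 with 1 library left out. The members' median was 0.61 with flow 3 alone and 0.12 to 0.41 with 1 library left out.

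Adjacent title numbers (3 and 4, 11 and 12, 19 and 20) share no label of a common day. Their deviations from the group means correlated at 0.04, 0.02 and 0.06. Among the other combinations, control 2 with flow 1 had 0.03, and the rest lay between -0.07 and 0.003. For each flow library the control with the adjacent title had the highest value. All these values were small, so pairs are not established. With pairs as a replicate block 1 gene was called and 0 members. The SE of every member fell, from 0.536 to 0.36 for Nfkbiz and from 0.152 to 0.144 for Birc3. Tnfaip3 had an SE of 0.14 in place of 0.41 (limma, unadjusted p = 0.00417, adjusted p = 0.423). Unadjusted p was under 0.05 (limma) for 1404 genes with the block and 1019 without.

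Differences that changed sign, none of them called, were those of Rela (0.074 with the GC trend removed, 0.12 with flow 3 alone, -0.28 to 0.03 with 1 library left out), Tnip1 (-0.059 in the other table, -0.18 to 0.29 with 1 library left out), Birc3 (-0.15), Cd40 (-0.98) and Bcl3 (-0.05) in the other table, Ltbr (0.013 with flow 3 alone), Nfkbib (0.034 with the GC trend removed, 0.014 with flow 3 alone) and Nfkbid (-0.015 to 0.30 with 1 library left out).

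List medians moved as follows. Other subunits and IkB proteins had -0.042 with a minimum of 5 FPKM, 0.27 with the GC trend removed, -0.044 in the other table and -0.004 to 0.30 with 1 library left out. Other feedback regulators had 0.052 with the GC trend removed, 0.071 in the other table, 0.024 with flow 3 alone and 0.095 to 0.26 with 1 library left out. Receptors had 0.069 with the GC trend removed, 0.071 with flow 3 alone and -0.089 to 0.051 with 1 library left out. Adaptors and kinases had -0.14 in the other table, 0.024 with flow 3 alone and -0.083 to 0.018 with 1 library left out. Other target genes had 0.19 to 0.52 with 1 library left out. Ligands had 0.13 with no filter, 0.15 in the other table, 0.093 with flow 3 alone and 0.16 to 0.46 with 1 library left out. The causes were not tested.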

Other observations

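Ratios between members within a library cancel differences that act on all members alike, and they were examined after the values had been seen. Of 45 pairs, which share genes, 7 (15.6%) had a flow range that did not overlap the control range, and 6 of these 7 involved Rela. For single genes the share was 15.1%, which is a different measure. The share over ratios of all gene pairs was not computed. With the GC trend removed 6 pairs did not overlap, and 3 pairs did so both ways. The ratio of Nfkb2 to Rela was 1.51, 1.47 and 1.38 in controls 1 to 3 and 1.94, 1.87 and 1.86 in flow 1 to 3. The ratio of Relb to Rela was 0.809, 0.83 and 0.781 in controls and 0.961, 1.05 and 1.04 in flow. In flow 1, where 5 members had their lowest value of the 6 libraries, both ratios lay outside the control range. The choice of pairs without overlap fixed this in advance, so it is no further support. The other deposited table, which is of lower depth, gives values under the same library titles for all but 2 columns. It is therefore not an independent check. Both ratios were apart there, with Nfkb2 to Rela at 1.29 to 1.49 in controls and 1.85 to 1.92 in flow. The third pair was Rela to Nfkbia, with 0.712, 0.888 and 0.778 in controls and 0.588, 0.588 and 0.382 in flow, which overlapped in the other table. A ratio shows unequal change and not which gene changed, and no test was run on pairs chosen in this way.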
